A study of Mus musculus with 8 samples.

Results

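Peaks of accessible chromatin were examined at 10 genes of the smooth muscle contractile apparatus in E10.5 mouse hearts. The genes were *Acta2*, *Actg2*, *Tpm2*, *Lmod1*, *Cnn1*, *Tagln*, *Smtn*, *Synpo2*, *Myh11* and *Mylk*, out of 21951 protein-coding genes in GENCODE release M21. ATAC-seq, which uses the Tn5 transposase to tag open DNA with adapters for sequencing, was performed on 4 WT and 4 *Chd4-CMko* samples, each from pooled hearts. *Chd4* encodes the ATPase of the NuRD chromatin remodelling complex. In *Chd4-CMko* embryos floxed *Chd4* is deleted in cardiomyocytes by a Cre expressed from *Tnnt2*, so the other cells of these hearts are not targeted, and in the study the controls were littermates. What was deposited is a pair of lists of differential peaks, 12991 that were higher in *Chd4-CMko* (gained) and 2745 that were higher in WT (lost). A peak was assigned to a gene if the transcription start site (TSS) nearest to its centre, among those of all protein-coding genes, belonged to that gene, or if its centre lay within 10 kb of the gene body. A peak with its centre within 3 kb of any annotated TSS of the gene is called a promoter peak, and all others are called distal. By this rule 14 peaks were found at these genes, 12 gained and 2 lost. The peak nearest to the 10 kb limit from inside was a gained one 9.10 kb from *Smtn* (score 108.5), and the nearest peak left out by both criteria was a gained one 20.7 kb from *Synpo2* (score 61.5), nearest to the TSS of *Sec24d*.

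Smooth muscle cells contract when myosin light chain kinase phosphorylates the regulatory light chain of smooth muscle myosin, which then pulls on filaments of smooth muscle actin. Many genes of this apparatus are controlled by serum response factor (SRF) and its coactivator myocardin, which act through a short AT-rich element, the CArG box. In the embryo several of these genes, *Acta2* and *Tagln* among them, are also transiently expressed in cardiomyocytes, and later they mark the smooth muscle of the outflow tract and the coronary vessels.

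Each list gave 1 score per peak and no value per sample, so a replicate error and a test between the genotypes could not be had, and the read depth behind a peak is not in the files. Scores were used only to rank a peak within its own list, because the lists may be on different scales. Every listed peak passed the authors' limit for a difference, and sites open to the same extent in both genotypes are not listed. A gene without a listed peak therefore had no site that passed that limit within its assigned region, and nothing follows about whether its promoter was open. For the same reason the tissue of the samples could not be checked against marker genes. In these bulk samples, fewer cells with an open site and a less open site per cell cannot be told apart.

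Of the 10 genes, 7 had a gained peak (70.0%, Wilson 95% interval 39.7 to 89.2%). The share over all protein-coding genes was 37.3% (8193 genes). A gained promoter peak was present at 2 of the 10 genes, *Tpm2* and *Myh11* (20.0%, 5.67 to 51.0%), against 12.3% of all protein-coding genes, so the interval of the promoter share held the background. *Mylk* was the only one of the 10 with a lost peak (10.0%, 1.79 to 40.4%), against 10.8% of all protein-coding genes. None had a lost promoter peak, and the share over all protein-coding genes was 1.23%. *Actg2* and *Cnn1* had no peak of either list (20.0%), against 58.3% of all protein-coding genes. No gene of the 10 had both a gained and a lost peak. Over all protein-coding genes, 6797 of the 8193 with a gained peak had no lost peak. For the 10 genes these statements hold for the 10 kb window, since with one of 50 kb *Cnn1* and *Mylk* each had peaks of both lists. The median gene had 1 gained peak, against 0 for all protein-coding genes, and the 12 gained peaks over 10 genes compare with a mean of 0.721 per protein-coding gene. The genes were 6.44 to 257 kb long, with a median of 23.2 kb against 17.4 kb for all protein-coding genes. Among the 15804 protein-coding genes within that range of lengths, 40.7% had a gained and 11.2% a lost peak, and both shares were inside the intervals of the 10 genes. The intervals cover counting error only and treat genes as independent, and the genes were chosen with earlier results of these data known.

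**Figure D1:**
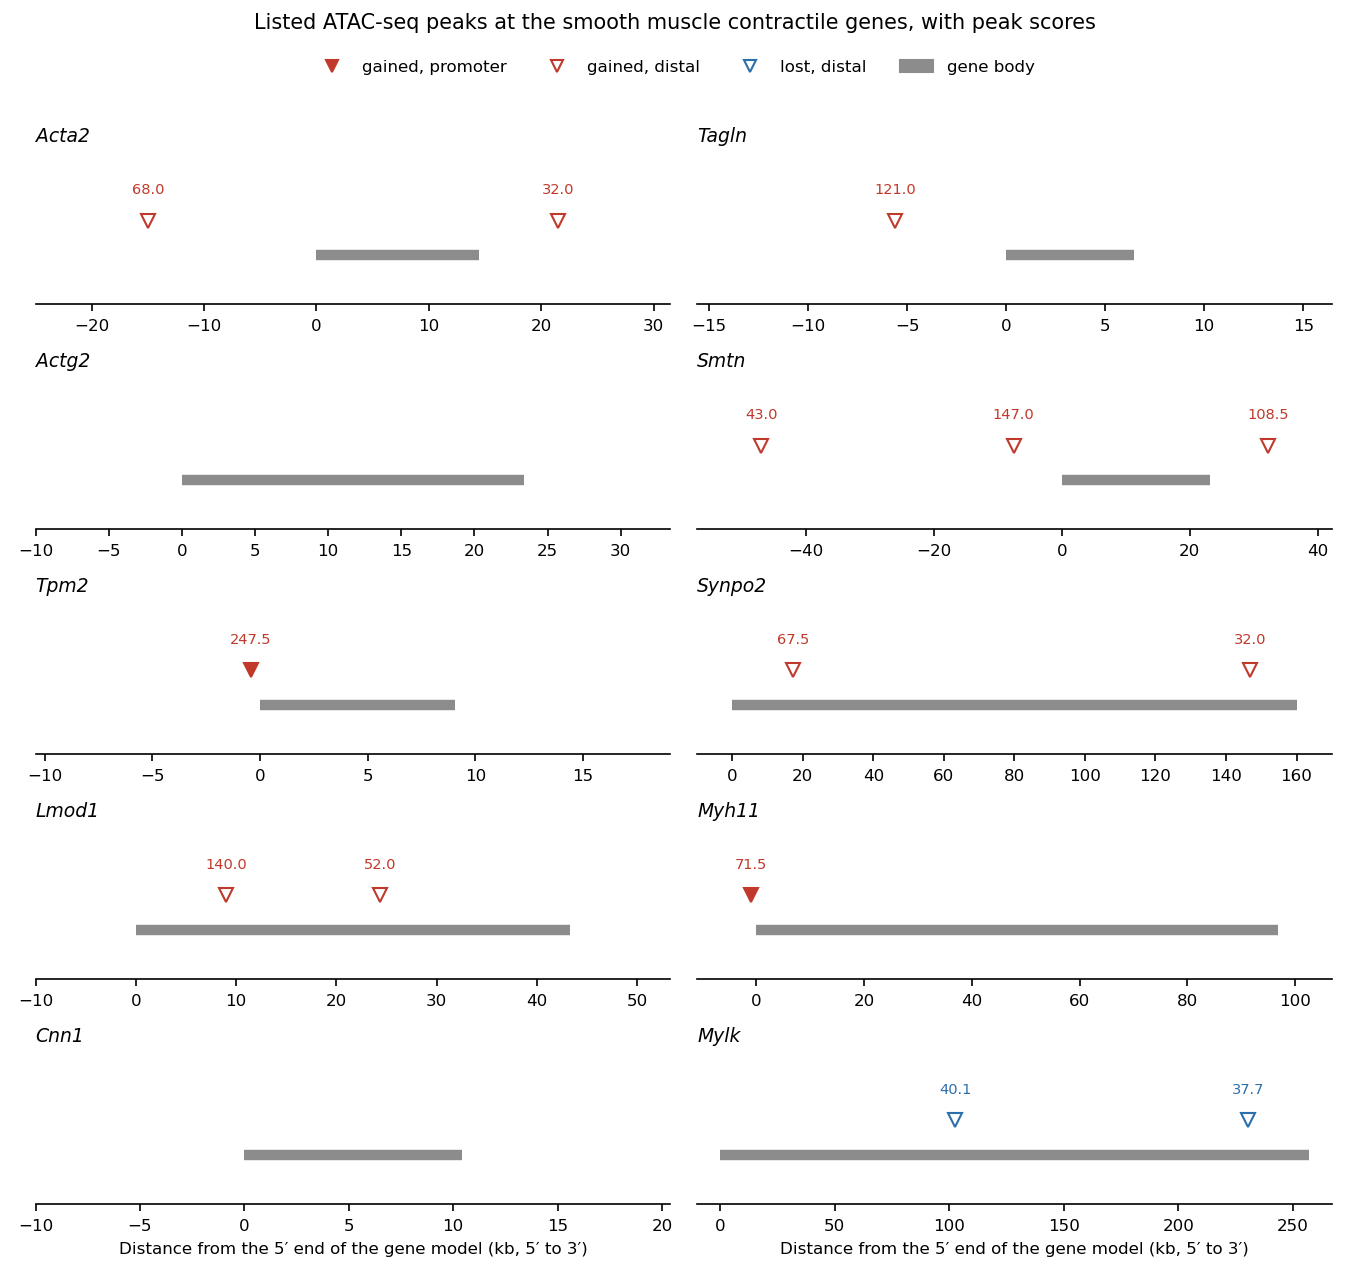
Listed peaks at each of the 10 genes. The horizontal axis is the distance in kb from the 5′ end of the gene model in the direction of transcription, with a scale of its own for each gene. Grey bars are gene bodies, triangles are peaks (red gained, blue lost, filled for promoter peaks), and the number above each is its score. The filled triangles are at *Tpm2* (247.5) and *Myh11* (71.5), the blue ones are both inside *Mylk*, and *Actg2* and *Cnn1* have none.

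The sequences of the peaks that carry these counts are given in mm10, 5′ to 3′ on the strand of the gene. They are the 2 promoter peaks, the 3 distal gained peaks with the highest scores (at *Smtn*, *Lmod1* and *Tagln*), the stronger of the *Acta2* peaks and both lost peaks, the distal ones being chosen after their scores were seen. The *Tpm2* promoter peak is chr4:43524105-43524255 and the *Myh11* promoter peak is chr16:14292300-14292450, both on the minus strand. The *Lmod1* peak is chr1:135333723-135333873, on the plus strand. The *Smtn* peak is chr11:3548059-3548209, the *Tagln* peak is chr9:45941585-45941735 and the *Acta2* peak is chr19:34270489-34270639, all on the minus strand. The lost *Mylk* peaks are chr16:34847752-34847902 (first) and chr16:34975673-34975823 (second), on the plus strand. Capitals mark matches on either strand to 7 strings, namely the CArG box, the MEF2 site, the site of GATA factors AGATAAG, the TEAD site ACATTCC, the E-box CANNTG, the NFY string CCAAT and the Sp/KLF string GGGCGG. A CArG box with 1 mismatch is also in capitals.
Tpm2 promoter peak: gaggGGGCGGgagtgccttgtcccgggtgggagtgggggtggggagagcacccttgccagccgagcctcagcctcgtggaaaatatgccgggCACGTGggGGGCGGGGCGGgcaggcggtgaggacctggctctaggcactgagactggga
Myh11 promoter peak: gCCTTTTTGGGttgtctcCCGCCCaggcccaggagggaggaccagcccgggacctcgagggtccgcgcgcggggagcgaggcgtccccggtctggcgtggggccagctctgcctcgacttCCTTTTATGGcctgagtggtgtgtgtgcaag
Lmod1 intron peak: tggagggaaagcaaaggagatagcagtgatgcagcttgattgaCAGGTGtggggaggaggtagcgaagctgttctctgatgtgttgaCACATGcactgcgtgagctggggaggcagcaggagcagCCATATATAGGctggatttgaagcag
Smtn upstream peak: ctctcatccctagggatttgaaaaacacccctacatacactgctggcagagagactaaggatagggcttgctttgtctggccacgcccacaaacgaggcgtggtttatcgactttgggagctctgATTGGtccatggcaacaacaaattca
Tagln upstream peak: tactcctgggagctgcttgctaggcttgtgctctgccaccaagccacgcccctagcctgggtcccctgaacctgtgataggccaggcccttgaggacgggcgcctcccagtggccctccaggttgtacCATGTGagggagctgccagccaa
Acta2 upstream peak: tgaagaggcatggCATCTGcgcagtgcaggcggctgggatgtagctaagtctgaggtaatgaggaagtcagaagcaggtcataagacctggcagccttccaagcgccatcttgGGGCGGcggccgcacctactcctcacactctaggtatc
Mylk lost peak, first: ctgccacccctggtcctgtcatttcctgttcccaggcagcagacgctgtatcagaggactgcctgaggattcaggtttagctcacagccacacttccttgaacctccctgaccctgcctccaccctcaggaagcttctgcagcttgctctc
Mylk lost peak, second: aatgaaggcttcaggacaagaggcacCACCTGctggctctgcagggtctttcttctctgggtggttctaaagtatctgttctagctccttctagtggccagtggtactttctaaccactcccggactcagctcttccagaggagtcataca

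The thin filament genes had 5 gained peaks. *Tpm2* (chr4:43514711-43523765, ENSMUSG00000028464.16), which encodes β-tropomyosin, a coiled coil that lies along the actin filament, had the highest score of the 12 gained peaks. Its promoter peak was centred 415 bp upstream of the gene's 5′ end and had a score of 247.5, with 637 of the 12991 gained peaks above it (percentile 95.1). It held 3 Sp/KLF strings, the last 2 of which share a base, and an E-box of the palindromic form CACGTG. Its GC content was 70.9%, the highest of the 14 peaks, and the median gained peak had 55.0%.

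*Acta2* (chr19:34241090-34255590, ENSMUSG00000035783.9) encodes the α-actin of smooth muscle, and its 2 gained peaks were both distal. The peak 14974 bp upstream of its 5′ end had a score of 68.0 (percentile 54.8) and held an E-box and an Sp/KLF string. The other peak, chr19:34234037-34234187, lay 6.98 kb past the 3′ end of the gene and had a score of 32.0 (percentile 12.0). It fell in coding exon 6 of 11 of the neighbouring gene *Stambpl1*, whose TSS was nearer (1406 bp), and reached *Acta2* only through the 10 kb window. No listed peak lay within 3 kb of either annotated TSS of *Acta2*.

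*Lmod1* (chr1:135324807-135368065, ENSMUSG00000048096.7), which encodes leiomodin 1, an actin filament nucleator, had 2 gained peaks in its first intron. The stronger was 8991 bp downstream of the TSS, with a score of 140.0 (percentile 82.7). It held 2 E-boxes and a stretch of 11 bases in which 2 overlapping frames each differ from a CArG box by 1 base. The second, chr1:135349059-135349209, had a score of 52.0 (percentile 39.9) and none of the 7 strings, and its nearest TSS was that of *Shisa4* (24316 bp) rather than that of *Lmod1* (24327 bp). *Actg2* (chr6:83512905-83536265, ENSMUSG00000059430.14), which encodes the γ-actin of enteric smooth muscle, had no listed peak, and the nearest was a gained peak 56.1 kb from the gene body (score 374.0) whose nearest TSS was that of *Tet3*.

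Among the genes for proteins that bind actin and tune contraction, 3 of 4 had gained peaks and none had a promoter peak, against 37.3% and 12.3% of all protein-coding genes. *Smtn* (chr11:3517523-3540612, ENSMUSG00000020439.17), which encodes smoothelin of contractile smooth muscle, had 3 gained peaks, the most of the 10 genes. Over all protein-coding genes, 1711 had 3 or more. The peak 7522 bp upstream of the 5′ end had the highest score of the 3, 147.0 (percentile 84.1), and held 1 CCAAT string on the opposite strand. The peak at chr11:3508353-3508503, 9.10 kb past the 3′ end, had a score of 108.5 (percentile 74.5), 2 Sp/KLF strings and an E-box, and was nearer to the TSS of *Inpp5j* (3607 bp). The third, chr11:3587497-3587647, was 46960 bp upstream with a score of 43.0 (percentile 28.7).

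*Tagln* (chr9:45929619-45936058, ENSMUSG00000032085.5), which encodes transgelin (SM22α), had 1 gained peak, 5602 bp upstream of its TSS, with a score of 121.0 (percentile 78.2). That peak lay in intron 23 of 25 of *Sidt2* and only 252 bp from a TSS of that gene, so it belonged to *Tagln* by the 10 kb window and not by the nearest TSS. *Synpo2* (chr3:123076519-123236149, ENSMUSG00000050315.14), which encodes the actin-bundling protein synaptopodin 2, had 2 gained peaks within introns. The peak at chr3:123218755-123218905 (intron 1 of 4 of the longest transcript, score 67.5, percentile 54.4) held none of the 7 strings, and 72.8% of its bases were annotated as repeats. It was the only 1 of the 12 gained peaks with more than 50% repeat, against 10.2% of all gained peaks. The peak at chr3:123089396-123089546 (intron 4 of 4, score 32.0, percentile 12.0) held a CCAAT string and an E-box. *Cnn1* (chr9:22099216-22109630, ENSMUSG00000001349.5), which encodes the actin-binding protein calponin 1, had no listed peak. The nearest were a lost peak 39.9 kb and a gained peak 44.7 kb from its gene body.

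*Myh11* (chr16:14194535-14291372, ENSMUSG00000018830.10) encodes the smooth muscle myosin heavy chain, the motor of the thick filament. Its single gained peak was centred 1003 bp upstream of the 5′ end, with a score of 71.5 (percentile 57.2) and a GC content of 68.9%. This was the only one of the 14 peaks with an exact CArG box, CCTTTTATGG at chr16:14292321-14292330, 954 bp upstream of the TSS and 49.5 bp from the centre of the peak. The next listed peak outside the assigned region was a gained one 430 kb from the gene body.

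*Mylk* (chr16:34745210-35002420, ENSMUSG00000022836.11), which encodes the kinase that starts contraction, was the longest of the 10 genes at 257 kb and had 8 annotated TSSs. Its 2 peaks were both lost, with scores of 40.1 (percentile 58.1 of the lost list) and 37.7 (percentile 52.3). The first lay in intron 2 of 31 of the longest transcript, 52.4 kb upstream of the nearest internal TSS, and held none of the 7 strings. The second lay in intron 25 of 31, 18.4 kb from the nearest TSS, and held 1 E-box. A lost peak without a gained peak was found at 966 protein-coding genes (4.40%). The nearest gained peak was 47.1 kb from the body of *Mylk*.

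**Figure D2:**
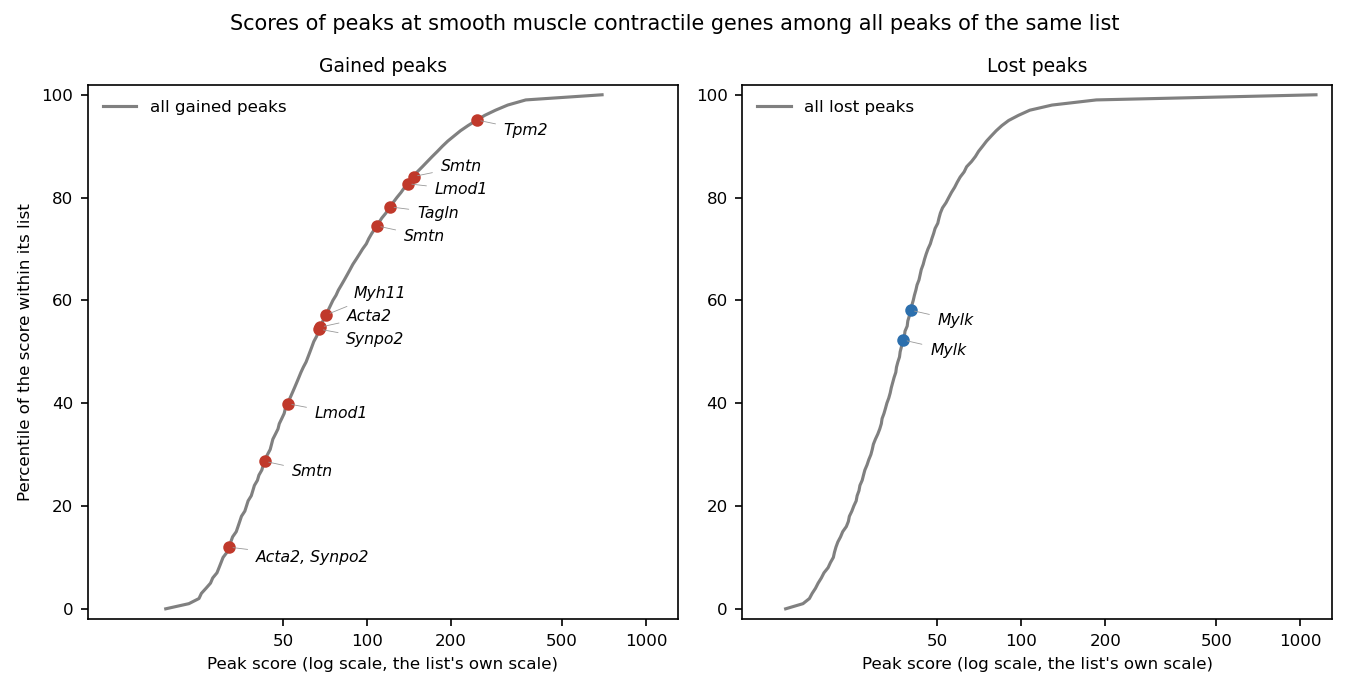
Scores of the 14 peaks on the cumulative curves of all 12991 gained (left) and 2745 lost (right) peaks. The horizontal axis is the score on a log scale and the vertical axis the percentile within the list. *Tpm2* is at percentile 95.1 and the lowest gained peaks, at *Acta2* and *Synpo2*, are at 12.0. Both *Mylk* peaks are near the middle of the lost list.

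The gained peaks at these genes had scores from 32.0 to 247.5, in a list that ran from 19.0 to 696.5. Their median score was 69.8, against 62.5 for all gained peaks, and 8 of the 12 were above the median of the list. Of the 12, 4 were within 3 kb of a protein-coding TSS (33.3%, 13.8 to 60.9%), against 22.9% of all gained peaks, but only those of *Tpm2* and *Myh11* were at the TSS of one of the 10 genes, the others being at *Sidt2* and *Stambpl1*. The median distance from the nearest protein-coding TSS was 8.26 kb, against 15.5 kb for all gained peaks. The share within 3 kb and the distance at these genes are in part fixed by the assignment, which takes in peaks within 10 kb of a gene body. The median GC content of the 12 peaks was 58.9%, within a range of 49.0 to 70.9%.

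An Sp/KLF string was in 5 of 12, against 22.5% of all gained peaks, an E-box in 7 of 12, against 55.0%, and CCAAT in 2 of 12, against 29.3%. An exact CArG box was in 1 of 12, against 2.46% of all gained and 0.291% of all lost peaks. With 1 mismatch allowed it was in 2 of 12 (*Lmod1* and *Myh11*), against 13.1% of all gained peaks. No peak of these genes held the MEF2 site, AGATAAG or ACATTCC, which were in 3.26%, 5.45% and 3.76% of all gained peaks. A match is a match of letters, and binding of a factor was not measured.

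CArG boxes were counted near every annotated TSS of these genes, whether or not a peak was listed there. Within 3 kb of an annotated TSS, 9 of the 10 genes had at least 1 exact CArG box, *Lmod1* being the exception, against 42.3% of all protein-coding genes. Within 250 bp it was 5 of 10 (*Acta2*, *Actg2*, *Cnn1*, *Tagln* and *Mylk*), against 5.78%. With 1 start per gene, in RefSeq promoter windows of 250 bases before to 50 after it, an exact CArG box was in 0 of the 7 genes matched (*Acta2*, *Cnn1* and *Mylk* among them), against 1.63% of all windows. These windows differ from the others in start site, in extent and in genes, since *Actg2* and *Tagln* were not matched. Their share is over 32851 windows, and the others are over 21951 protein-coding genes. The counts are of sequence and do not depend on the peaks. Genes with more TSSs offer more windows, and *Mylk* alone had 6 of the 21 boxes. Of the 21 boxes within 3 kb, 1 lay inside a listed peak, the one upstream of *Myh11*. Over all protein-coding genes, 48 of 12861 such boxes (0.373%) were inside a gained peak and 2 inside a lost peak. The *Tpm2* promoter peak ended 123 bases short of the CArG box of that gene, which was centred 618 bp upstream of the TSS.

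The 9 boxes within 250 bp of a TSS, all outside listed peaks, and the box of *Myh11*, inside a gained peak, are shown with 10 bases on either side, on the strand of the gene, in mm10. The intervals are chr19:34254278-34254307 (*Acta2*, 62 bp upstream of its second TSS), chr6:83536314-83536343 and chr6:83536277-83536306 (*Actg2*, 64 and 26 bp upstream), chr9:22100116-22100145 (*Cnn1*, 62 bp upstream of an internal TSS), chr9:45936151-45936180 and chr9:45936028-45936057 (*Tagln*, 108 bp upstream and 16 bp downstream) and chr16:14292311-14292340 (*Myh11*). Those of *Mylk* are chr16:34952895-34952924 (148 bp upstream of an internal TSS), chr16:34994387-34994416 (222 bp downstream of another) and chr16:34994789-34994818 (4 bp upstream of a further one). *Cnn1* and *Mylk* are on the plus strand and the others are on the minus strand. Capitals mark the CArG box.
Acta2 CArG box: gtgtgttttaCCTAATTAGGaaatgctccc
Actg2 CArG box, distal: aaaaaaaacaCCTTATATGGtaatattgct
Actg2 CArG box, proximal: cgtcagctggCCTTTTTAGGgactctgttt
Cnn1 CArG box: agccgccgcgCCTTATAAGGcggccttggg
Tagln CArG box, upstream: agggtcctgcCCATAAAAGGtttttcccgg
Tagln CArG box, downstream: gtgtctttccCCAAATATGGagcctgtgtg
Mylk CArG box, first: tgacttctgaCCATATATGGgtagtaggca
Mylk CArG box, second: cctaagtggcCCATTTTTGGgtgtttgtct
Mylk CArG box, last: ataaactatcCCTTTTATGGgagttgaagc
Myh11 CArG box: gcctcgacttCCTTTTATGGcctgagtggt

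The nearest listed peak to the *Acta2* box was a gained one 16.3 kb away. The boxes of *Tagln* were 5.49 and 5.62 kb from the gained peak in *Sidt2*, and those of *Cnn1* and *Actg2* were 45.6 and 79.5 kb from a listed peak. The 3 boxes of *Mylk* were 22.8, 18.7 and 19.1 kb from the nearer of its lost peaks. The RefSeq promoter windows (GRCm38.p6) were matched for 7 of the 10 genes, *Acta2*, *Cnn1*, *Lmod1*, *Mylk*, *Smtn*, *Synpo2* and *Tpm2*. No listed peak overlapped any of the 7 windows. None of the 7 held an exact CArG box or AGATAAG, which were in 1.63% and 3.04% of 32851 windows. ACATTCC was in 3 of the 7 (*Lmod1*, *Mylk* and *Smtn*), against 3.85%, and the MEF2 site in 1 (*Synpo2*), against 3.19%. An E-box was in 6 of the 7, against 72.3%, CCAAT in 5, against 37.4%, and the Sp/KLF string in 4, against 35.7%.

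**Figure D3:**
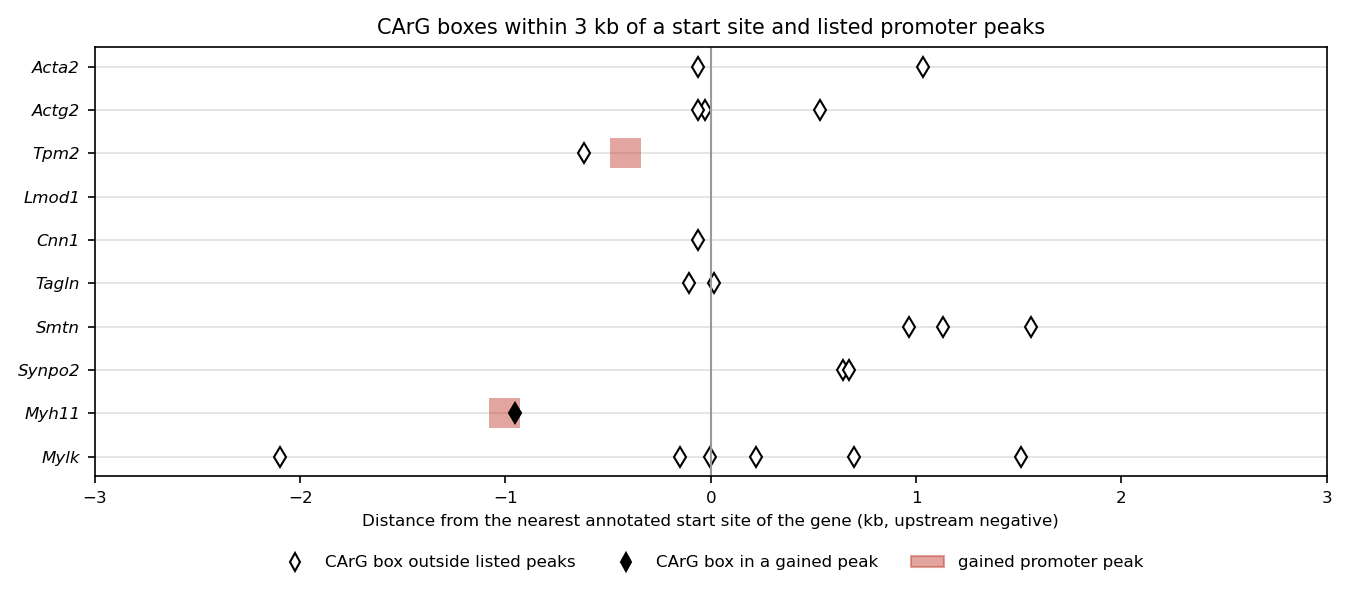
Exact CArG boxes within 3 kb of an annotated TSS of each gene (diamonds) and the gained promoter peaks (red bars, to scale). The horizontal axis is the distance in kb from the nearest TSS of the gene, upstream to the left. Of 21 boxes, the filled one at *Myh11* is inside a peak, and the *Tpm2* box lies upstream of the *Tpm2* peak.

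The rest of the contractile pathway was read from lists of related genes. Of 20 other genes of the smooth muscle contractile and adhesion apparatus, 17 had a gained peak (85.0%, 64.0 to 94.8%), and the difference from the 10 genes was 15.0 percentage points (Newcombe 95% interval -13.5 to 46.9). The gained promoter peaks were at 3 of the 20 (15.0%, 5.24 to 36.0%), against 12.3% of all protein-coding genes. *Ppp1r14a*, which encodes the myosin phosphatase inhibitor CPI-17, had one 21 bp upstream of its TSS with a score of 232.5. *Kcnmb1*, the β subunit of the large-conductance potassium channel of smooth muscle, had one at 202 bp with a score of 190.5. *Csrp1*, a LIM-domain protein, had one at 237 bp with a score of 104.0. The highest score of this list was 411.0, at a distal peak assigned to *Pdlim7* whose nearest TSS was that of *Dbn1*. The lost peaks of this list included those at *Cald1* (82.0), the highest of them, *Vcl* (32.2 and 45.4) and *Ppp1r12a* (53.3). The *Vcl* peak with a score of 45.4 was a promoter peak, 2830 bp upstream of a TSS, and the only lost promoter peak among all the genes listed. *Myl6* and *Flna* had no listed peak.

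Of 20 regulators of the smooth muscle program, 15 had a gained peak (75.0%, 53.1 to 88.8%) and 6 a gained promoter peak (30.0%, 14.5 to 51.9%, against 12.3% of all protein-coding genes). The highest score was at the TSS of *Tead1* (421.5, percentile 99.5), a factor that binds ACATTCC. *Tgfb1*, a growth factor that induces contractile genes, had 2 promoter peaks (273.5 and 376.5). *Notch3*, a receptor of vascular smooth muscle (291.5), *Klf5* (263.0), *Nkx3-2* (181.0) and the TGFβ effector *Smad3* (145.0) had 1 each. A lost peak was at 8 of the 20 (Wilson 95% interval 21.9 to 61.3%), against 10.8% of all protein-coding genes and 1 of the 10 contractile genes, the difference from the latter being 30.0 points (-5.40 to 52.9). All of these lost peaks were distal. Those of *Klf4*, *Klf5*, *Tgfbr2* and *Tbx18* were 111 to 213 kb from the TSS of their gene, which was the nearest. A gained peak was also at 7 of the 8 genes. Over all protein-coding genes, 966 of the 2362 with a lost peak had no gained peak. The lost peaks included those at *Gata6* (75.8), the highest of the lost scores in this list, and *Myocd*, the gene of myocardin (43.2).

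Paralogs of the 10 genes, with *Tpm1* of the other contractile apparatus list among them, had gained peaks at 15 of 23 genes (65.2%, 44.9 to 81.2%). They had gained promoter peaks at 6 (26.1%, 12.5 to 46.5%, against 12.3% of all protein-coding genes), which were *Acta1*, *Smtnl1*, *Myh14*, *Tpm3*, *Synpo* and *Synpo2l*. Among the actins, *Acta1* of skeletal muscle had a gained promoter peak with a score of 203.0, whereas *Acta2* and *Actg2* had none. The cardiac actin gene *Actc1* had 2 distal gained peaks (143.0 and 174.5) and no promoter peak, and the cytoplasmic actins *Actb* and *Actg1* had no listed peak at all. The promoter peaks with the highest score in this list were at *Synpo* (348.5, percentile 98.7), the relative of *Synpo2*, and *Acta1*. Beside the *Tpm2* peak of 247.5, the promoter peaks of *Tpm3* had scores of 49.5 and 86.0. The calponin paralog *Cnn3* had the only lost peak of this list (35.3).

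Genes of skeletal muscle, mostly of fast fibres but with *Tnnt1* and *Mybpc1* of slow fibres among them, had a gained peak at 14 of 20 (70.0%, 48.1 to 85.5%), the same share as the smooth muscle genes, with a difference of 0 points (-29.1 to 34.0). The promoter share was 11 of 20 (55.0%, 34.2 to 74.2%), against 12.3% of all protein-coding genes and 2 of the 10, with a difference from the 10 of 35.0 points whose interval (-2.31 to 58.9) held 0. *Ckm* (268.5, and 234.0 at a peak nearer to the TSS of *Klc3*), *Acta1* (203.0) and *Tnnt1* (190.5) had the highest scores among those promoter peaks. The others were at *Actn3*, *Atp2a1*, *Cacna1s*, *Myl1*, *Myoz1*, *Ryr1*, *Tnnc2* and *Tnnt3*, with scores from 30.0 to 178.0. The highest score of the list was at a distal peak in the window of *Ryr1* (324.0). Genes of the cardiac sarcomere and calcium handling had a gained peak at 12 of 20 (60.0%, 38.7 to 78.1%) and a gained promoter peak at 6 (30.0%, 14.5 to 51.9%, against 12.3%), which were *Tnnc1* (363.5), *Myl3* (181.0), *Myl4* (170.0), *Tnni3* (150.5 and 168.0), *Tnni1* (86.0) and *Actn2* (54.5). None of the skeletal muscle genes and 1 of the cardiac genes, *Ryr2* (60.2 for the highest of its 3), had a lost peak. Some genes are in more than 1 of these lists, and none of the lists shares a gene with the 10. In every list the share with a gained peak was above the 37.3% of all protein-coding genes, and no interval of a difference between a list and the 10 genes excluded 0.

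**Figure D4:**
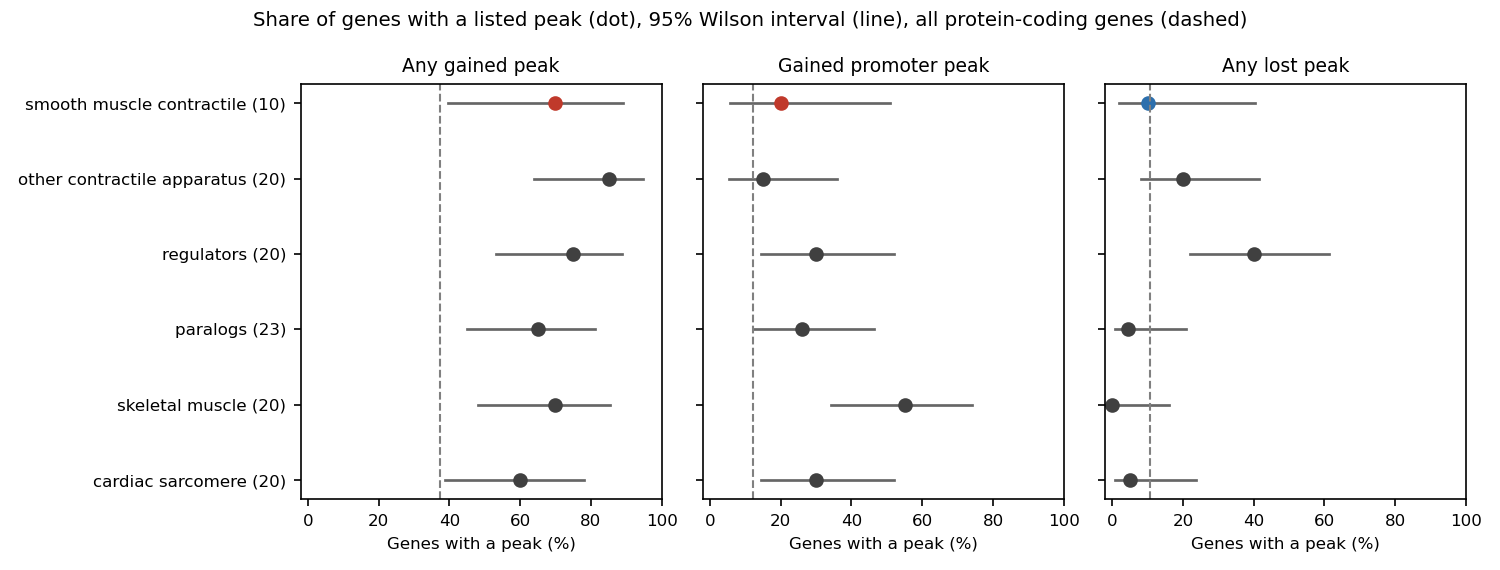
Share of genes (%) with any gained peak, with a gained promoter peak and with any lost peak, for the 10 smooth muscle contractile genes (coloured dot) and 5 related lists (grey dots). Lines are Wilson 95% intervals, numbers in brackets are genes per list and the dashed line is the share of all protein-coding genes (37.3%, 12.3% and 10.8%). The smooth muscle genes stand at 70.0%, 20.0% and 10.0%, and the skeletal muscle genes have 55.0% in the middle panel.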

How the data were processed

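ATAC-seq libraries were made from 4 WT and 4 *Chd4-CMko* samples of E10.5 hearts. Each sample was a pool of hearts, 3 per the series design and the study's methods for this stage (the sample protocol says 4), from which 40000 viable cells were taken. Per the labels, BWA-MEM placed the reads on mm10, HOMER 4.10.3 was the authors' peak caller and ChIPseeker 1.20.0 their annotation tool. How replicates were combined, the treatment of duplicates and any Tn5 offset are not given in the sources used here, and each can change which peaks are listed. The value deposited by the authors is a peak score, whose scale is not stated. The lists have no value per sample, so replicate error could not be had, and the read depth behind a peak is not in them.

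Peaks were joined to GENCODE M21 by centre, and sequence was read from GRCm38, the same build (Python 3.11.15, pysam 0.24.0, samtools 1.23.1). Shares have Wilson and differences Newcombe 95% intervals. Strings were matched on both strands. The search functions were tested on simulated data. All listed peaks of the 10 genes are reported. Related genes are named where they have a promoter peak or the highest score of their list, and others named were chosen after their values were seen. The 10 genes and the lists were chosen with earlier results of these data known.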

Additional observations from a re-analysis of the deposited data

How the results depend on the processing

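The counts at the 10 genes were recomputed with other assignment rules, start sites, promoter windows and score limits. Of 49 alternative values, 44 were within 1.5 times the count reported and 5 were not. With a window of 50 kb, gained peaks rose from 12 to 23 and the genes with a lost peak from 1 to 2, *Cnn1* being added. The genes with a gained peak then numbered 9, *Cnn1* and *Mylk* being added, so that both had gained and lost peaks. With a promoter window of 1 kb, the gained promoter peaks and the genes with one both fell from 2 to 1, since the *Myh11* peak is 1003 bp from the TSS. Peaks with a CArG box numbered 2 with 1 mismatch allowed and 1 without. *Tagln* had no gained peak when only the nearest TSS counted, or when the window was the gene body. A common score limit assumes 1 scale for both lists.

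Counting promoter peaks only, the share with a gained peak was 15.0% for the other contractile apparatus, 30.0% for regulators, 26.1% for paralogs, 55.0% for skeletal muscle and 30.0% for cardiac genes. No paired analysis was possible because the lists hold no value per replicate, and for the same reason no replicate could be left out.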

Other observations

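Several muscle genes lie together on chromosome 1, in a stretch chosen after the peaks were seen. From 10 kb before *Lmod1* to 10 kb past *Cacna1s* (chr1:135314807-136129822, 0.815 Mb, 14 protein-coding genes) there were 15 gained peaks and 1 lost peak. This is 18.4 gained peaks per Mb, against 4.27 per Mb over the whole chromosome, a description with no test. The 2 rates were not matched for the density of genes. Of the 15 gained peaks, 12 were assigned to 5 muscle genes. These were *Lmod1* of smooth muscle (2 peaks, highest score 140.0), *Csrp1* (3, 114.5), the slow troponin I gene *Tnni1* (2, 141.5), the cardiac troponin T gene *Tnnt2* (1, 107.0) and the calcium channel gene *Cacna1s* of skeletal muscle (4, 96.0). None of the 5 had a lost peak, and the share with one over all protein-coding genes was 10.8%.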
